A study of Homo sapiens with 2 samples.

Results

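The sites described here are the poly(A) sites whose mRNAs carried the shortest tails in untreated HCT116 cells, a human colon cancer line. They were chosen by a measured value. Reads of the 2 uninduced subsamples were pooled, and a site was kept where it had 20 or more pooled reads and a pooled median tail of 80 nt or less. This gave 303 of the 2470 sites with 20 or more pooled reads, out of 8995 sites in all. The other 2167 sites with that many reads are called the other sites. The uninduced tail lengths of the 303 sites are therefore a description of the choice, and only the sorted subsamples, whose reads took no part in it, were tested.

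Tails were read on native RNA by nanopore direct RNA sequencing of 2 polyclonal lines. In each line the endogenous PABPC1 and PABPC4 carried an mAID degron tag, which allows their removal by indole-3-acetic acid (IAA), and a Sleeping Beauty transposon had inserted copies of a transgene. The transgene was PABPC1 in 1 line and PABP1212, a PABPC1 whose RRM1 and RRM2 domains are duplicated, in the other. Each line gave 1 library of 5 barcoded subsamples: cells without replacement that were not sorted, called uninduced, and cells kept for 13 days in 1 μg/mL doxycycline with 0.5 mM IAA and sorted by transgene expression into 4 gates of 25% of the cells. The gates are called the lowest, second-lowest, second-highest and highest levels. No subsample was repeated, so a level is 1 observation, the transgene cannot be told apart from the library, and the level cannot be told apart from the adapters used for it. Between uninduced and sorted cells, doxycycline, IAA, sorting and adapters all differ together.

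Cytoplasmic poly(A)-binding proteins coat the tails of mRNAs through their RNA recognition motifs, and their binding both protects a tail and helps deadenylases to trim it. Short tails at steady state are known for abundant, stable and well-translated mRNAs, such as those of ribosomal proteins, whose tails are pruned to a defined length. Some RNAs, among them replication-dependent histone mRNAs and many small nucleolar RNAs, end without a poly(A) tail. The site positions in the deposited tables did not match hg38 transcript ends, so no gene name was attached to any site. Sites are given below by chromosome, position and strand as deposited. The submitters' processing notes name hg38, which the positions do not match, so their build is not known here. What is annotated at them was not analysed here.

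Depth ranged from 65862 to 630986 reads per subsample, and the 303 sites held from 10611 reads (PABPC1, lowest level) to 113801 reads (PABP1212, second-highest level). The number of the 303 sites with 10 or more reads was 153, 156, 222, 289 and 224 in the PABPC1 library, from uninduced to the highest level. It was 303, 254, 303, 303 and 303 in the PABP1212 library. All 8 sorted subsamples had 10 or more reads at 138 of the 303 sites and at 995 of the other sites. Those sites carry the tail comparisons below, and the remaining 165 short-tail sites enter only where stated.

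Most of the 303 sites lay close to the limit. Their pooled medians had a median of 75 nt, with an interquartile range of 71 to 78 nt, against a median of 100 nt and a lowest value of 80.5 nt at the other sites. At exactly 80 nt, the 3 most-read sites just inside the limit were on chromosome 2 at 217366190 (1395 pooled reads), chromosome 3 at 39453935 (1087) and chromosome 11 at 8707395 (992), all on the plus strand. At 80.5 nt, just outside, the 3 most-read sites were on chromosome 11 at 61732002 (1694 pooled reads), chromosome 2 at 9546748 (46) and chromosome 6 at 33665307 (40), all on the minus strand. The 95% order-statistic interval of the median ran from 76 to 83 nt at the first site inside and from 78 to 83 nt at the first site outside, so these neighbours could not be separated.

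How well the median was known depended on read depth. Of the 303 sites, 185 had 20 to 49 pooled reads, 67 had 50 to 199 and 51 had 200 or more. The median width of the 95% interval of the pooled median was 56 nt, 32 nt and 8 nt in these 3 depth classes. The interval ended below 98 nt, the median of all 2470 sites, at 46 of 185, 37 of 67 and 51 of 51 sites, which is 134 sites in all. Sites chosen on the PABP1212 uninduced reads alone gave 84 sites that could also be measured with 20 or more reads in the PABPC1 uninduced subsample. Their median was 75 nt where they were chosen and 79 nt in the other library, where 50 of them (59.5%) were again at 80 nt or less. Of the 469 sites not chosen, 10.0% were at 80 nt or less there, with a median of 96.5 nt. The same comparison starting from the PABPC1 uninduced reads gave 50 of 97 sites (51.5%) against 7.46% of the 456 sites not chosen.

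Deeply read sites were frequent among the short-tail sites. When the 2470 sites were ranked by reads in the sorted subsamples, which did not enter the choice, short-tail sites made up 25 of the first 50, 43 of the first 100 and 78 of the first 500. Their share of all 2470 sites was 12.3%. The median was 38 pooled uninduced reads in both classes. Chromosome 19 held 47 of the 303 sites, which is 19.4% of its 242 sites with 20 or more pooled reads, the highest share of any chromosome. Chromosome 15 held 3 of 59, the lowest share at 5.08%. On the plus strand lay 50.5% of the short-tail sites and 49.9% of the other sites. Another site lay within 500 nt on the same strand at 62 short-tail sites (20.5%) and at 22.5% of the other sites.

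Over the sorted levels, short-tail sites remained shorter than the other sites in each of the 8 subsamples, and both classes shortened as transgene expression rose. With PABPC1, the median over the 138 short-tail sites of the site median was 103 nt at the lowest level, 89 nt at the second-lowest, 84 nt at the second-highest and 83.5 nt at the highest. The 995 other sites were at 119, 106, 102 and 102 nt. With PABP1212, the short-tail sites were at 107, 81.25, 67.5 and 67.25 nt and the other sites at 124, 99.5, 83 and 85 nt. The uninduced values of the same sites, which chose the members, were 76.75 nt (PABPC1 library) and 75 nt (PABP1212 library) at short-tail sites and 100 and 98 nt at the other sites. The distance between the classes was 23.25 and 23 nt in uninduced cells and 15.5 to 18.5 nt in the sorted levels.

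**Figure D1:**
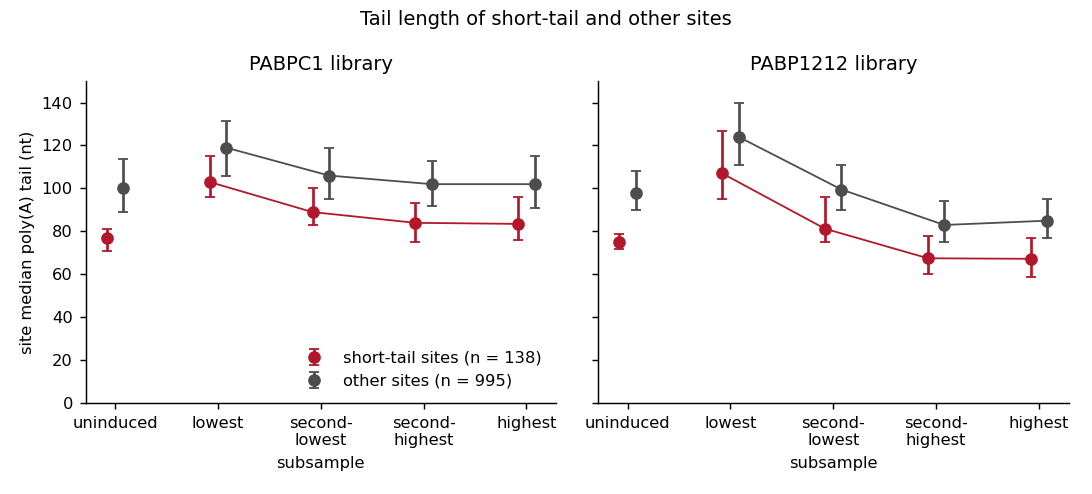
Median over sites of the site median tail length (nt) in each subsample of the PABPC1 library (left) and the PABP1212 library (right), for 138 short-tail sites and 995 other sites with 10 or more reads in all 8 sorted subsamples; bars span the interquartile range over sites, not replicate error, and uninduced sites need not reach 10 reads. Short-tail sites lie below the other sites at each level, at 103 against 119 nt in the PABPC1 lowest level and at 67.25 against 85 nt in the PABP1212 highest level.

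That distance narrowed from uninduced to sorted cells at sites with fewer than 200 pooled reads. At the 33 measured short-tail sites with 20 to 49 pooled reads, the distance to other sites of that depth was 30 and 29 nt in the uninduced subsamples and 5.5 to 18 nt in the sorted levels. At the 54 measured sites with 50 to 199 pooled reads it was 22.5 and 21 nt and then 6.5 to 13.75 nt. At the 51 deep sites (200 or more pooled reads) it was 16 and 16.25 nt in uninduced cells and 15 to 20.25 nt in the sorted levels. The deep short-tail sites stood at 98, 84, 76 and 76 nt over the PABPC1 levels and at 96, 75, 59 and 58 nt over the PABP1212 levels. Deep other sites, 134 in number, stood at 113, 99.5, 94.75 and 95.75 nt with PABPC1 and at 116.25, 91.25, 76 and 76 nt with PABP1212. The part that read depth and the choice by a low median play in the narrowing was not tested.

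The rank of single sites followed the same split. A median below that of all 1133 sites in each of the 8 sorted subsamples was found at 50 of 51 deep short-tail sites, 14 of 54 of middle depth and 0 of 33 of low depth. Among the 995 other sites, 65 (6.53%) did so. Across the 1133 sites, Spearman's rho between the pooled uninduced median and the median in a sorted level ranged from 0.355 to 0.583. These sites share libraries and differ in depth, and the coefficient is a description. A median of 80 nt or less was reached at 5, 26, 57 and 54 of the 138 short-tail sites over the PABPC1 levels and at 4, 65, 109 and 113 over the PABP1212 levels. At the other sites the share was 8.54% at the PABPC1 highest level and 37.1% at the PABP1212 highest level.

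The change in nt at short-tail sites was similar to that at other sites with PABP1212 and somewhat larger with PABPC1. In proportion it was larger with both. The median slope of the site median was -6.85 nt per level with PABPC1 and -14.1 nt per level with PABP1212, against -5.2 and -13.3 nt per level at the other sites and -5.5 and -13.4 over all 1133 sites. The slope was negative at 116 of 138 short-tail sites with PABPC1 and at 136 with PABP1212. From the lowest to the highest level the median change of a short-tail site was -21 nt with PABPC1 and -41 nt with PABP1212, which is -20.9% and -39.3% of its tail at the lowest level. The other sites changed by -16 and -39 nt, or -13.7% and -31.5%. No spread over replicate cultures was measured, and no test was made of a difference between the classes.

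Most of that shortening took place below the second-highest level. With PABPC1 the 3 steps between neighbouring levels had median changes of -14, -7.25 and 2 nt over the 138 sites. With PABP1212 they were -26.5, -15 and -1 nt. The first PABP1212 step shortened 127 of 138 sites and the second also 127. The last step shortened 79 and lengthened 54.

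Tails at short-tail sites were shorter in the PABP1212 library than in the PABPC1 library at the 3 upper levels. At the lowest level the median difference of a short-tail site between libraries (PABP1212 minus PABPC1) was 2 nt, with an interquartile range of -6.88 to 14.8 nt. It was -8.5 nt at the second-lowest, -16.5 nt at the second-highest and -18.75 nt at the highest level. Counting error alone was assessed with the 95% interval of each site median. The PABP1212 interval lay wholly below the PABPC1 interval at 0, 13, 50 and 52 of the 138 sites over the 4 levels. Over all 1133 sites it did so at 0.0883%, 3.00%, 21.0% and 16.3% of sites. Deep short-tail sites accounted for 45 of the 52 at the highest level, which is 88.2% of the 51, beside 61.2% of the 134 deep other sites. The median difference itself was no larger at deep short-tail sites. It was -17 and -19 nt there at the second-highest and highest levels, and -20 and -20.75 nt at deep other sites. Counts of separate intervals also depend on reads per site, for which these classes were not matched. The levels are gates on each line's own distribution of expression, and transgene and library cannot be told apart.

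Each of the 8 short-tail sites with the most reads had a shorter median at the highest than at the lowest level in both libraries, with intervals that did not overlap. The deepest, on chromosome 15 at 69747885 (plus strand, 13156 reads in all), had 80 nt in PABPC1 uninduced cells and 97, 89, 80 and 76 nt over the levels in rising order. In the PABP1212 library it had 77 nt uninduced and 95, 76, 59 and 58 nt over the levels. Its 95% intervals at the lowest level (90 to 102 nt and 86 to 102 nt) overlapped between libraries, and those at the highest level (71 to 80 nt and 56 to 60 nt) did not. Chromosome 16 at 2012024 (minus strand) held the second site, which was shorter than the rest in uninduced cells, at 72 nt (PABPC1 library) and 69.5 nt (PABP1212 library). Over the levels it had 101.5, 88, 80 and 73 nt with PABPC1 and 95, 81, 67 and 63 nt with PABP1212. A further site lies 25 nt away from it, so reads of the pair may be divided between them.

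The remaining sites of the 8 gave closely similar series. On chromosome 11 at 812876 (plus strand) the medians were 79 nt uninduced and 95, 84, 76 and 78 nt with PABPC1, and 76 nt uninduced and 94.5, 70, 57 and 56 nt with PABP1212. At 120634502 of chromosome 12 (minus strand) they were 79.5 nt uninduced and 100, 83, 78 and 72 nt with PABPC1, and 73 nt uninduced and 98, 73, 60 and 57 nt with PABP1212. On chromosome 16 at 89629485 (plus strand) the values were 76 nt uninduced and 105, 84, 72 and 75 nt with PABPC1, and 77 nt uninduced and 107, 73, 62 and 59 nt with PABP1212. These 3 sites were shorter in the PABP1212 library than in the PABPC1 library at each level above the lowest. At 217366190 of chromosome 2 (plus strand) the medians were 79 nt uninduced and 102, 84, 76 and 80.5 nt with PABPC1, and 80 nt uninduced and 103, 69.5, 54 and 54.5 nt with PABP1212. At 45911270 of chromosome 13 (minus strand) they were 80 nt uninduced and 98, 89, 78 and 79 nt with PABPC1, and 79 nt uninduced and 98, 79, 63 and 62 nt with PABP1212. On chromosome 8 at 146015120 (minus strand) the values were 78 nt uninduced and 103, 80, 76 and 78.5 nt with PABPC1, and 77 nt uninduced and 92, 77.5, 62 and 59 nt with PABP1212. All 8 sites ended near their uninduced median at the highest PABPC1 level, where both intervals overlapped, and below it at the highest PABP1212 level, where they did not. The uninduced reads took part in the choice of these sites, and the order was not particular to them. The class of other sites was at 100 nt uninduced and 102 nt at the highest level with PABPC1, and at 98 and 85 nt with PABP1212.

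**Figure D2:**
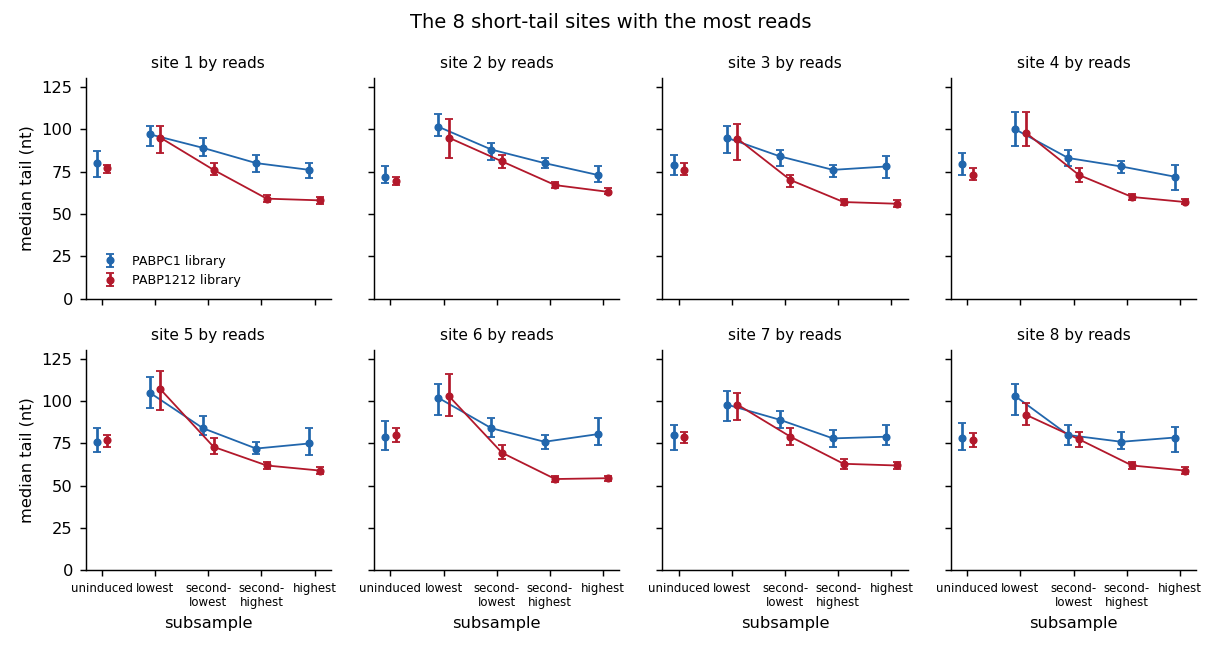
Median tail length (nt) of the 8 most-read short-tail sites in each subsample, in order of reads: the sites on chromosomes 15, 16 (minus strand), 11, 12, 16 (plus strand), 2, 13 and 8 described in the text; bars are 95% order-statistic intervals of the median, which cover counting error only. At the lowest level the intervals of the 2 libraries overlap at each site, with medians of 103 (PABPC1) and 92 nt (PABP1212) at the chromosome 8 site. At the highest level they lie apart, with medians of 72 to 80.5 nt with PABPC1 and 54.5 to 63 nt with PABP1212.

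Over all measured short-tail sites, the interval at the highest level lay wholly below that at the lowest level at 26 of 138 sites with PABPC1 and at 70 with PABP1212. Over all 1133 sites these shares were 4.94% and 36.6%. All 26 PABPC1 sites were deep ones, so that 26 of the 51 deep short-tail sites (51.0%) stood apart beside 17 of 134 deep other sites (12.7%). With PABP1212 these counts were 50 of 51 and 123 of 134. Such counts depend on reads per site, for which the deep classes were not matched. The median PABPC1 slope of the site median was -7.2 nt per level at deep short-tail sites and -5.6 at deep other sites. In the opposite direction there were 0 short-tail sites in either library.

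The trend over levels was then fitted per site with limma, on the mean log2 of tail length plus 1 nt, weighted by reads, over the 8 sorted subsamples and 1171 sites with 10 or more reads in each. The slope over the 4 levels was tested against 0, and the spread it was judged by is that around the fitted line, with 4 residual degrees of freedom. For PABP1212, 12% of the 1171 sites (141) passed the adjusted threshold of 0.05, all of them shorter at higher expression, and 50 of the 138 short-tail sites (36.2%) were among them. By depth, 45 of 51 deep short-tail sites (88.2%) and 70 of 134 deep other sites (52.2%) passed. These deep classes were not matched for reads per site, and their median trends were -0.174 and -0.144 log2 per level. In nt, the median PABP1212 slope of the site median was no steeper at deep short-tail sites. It was -13.45 nt per level there and -13.9 nt per level at deep other sites. The median trend was -0.17 log2 per level at short-tail sites and -0.14 over all tested sites. For PABPC1, the limma fit passed 0 of the 1171 sites (0%), and 14 sites, 6 of them short-tail sites, had an unadjusted p under 0.05. Their median PABPC1 trends were -0.10 log2 per level at short-tail sites and -0.08 over all. The difference between the transgenes' trends passed at 0 sites (0%), with 5 at an unadjusted p under 0.05, of which 2 were short-tail sites. A limma fit with the level as a block, chosen after seeing the data because the subsamples of a level share adapters, leaves 2 residual degrees of freedom. It passed 1 of the 1171 sites (0.0854%) for the difference, a short-tail site, and 152 sites, 37 of them short-tail, had an unadjusted p under 0.05. This site, on chromosome 14 at 50050262 (minus strand), had 93, 81, 77 and 82 nt with PABPC1 and 90, 63, 53 and 50 nt with PABP1212 (limma adjusted p = 0.0372).

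The PABP1212 count rested on single levels. Without the PABP1212 lowest or the PABP1212 second-lowest level, 0 short-tail sites passed. Leaving out the PABPC1 highest level gave 30, and leaving out the PABP1212 second-highest or highest level gave 92 and 107. The difference between transgenes passed at 32 short-tail sites once the PABP1212 highest level was left out. With no read weights 7 short-tail sites passed for PABP1212, of which 3 were among the 50. The share over all tested sites is not given for these alternatives. Their counts therefore do not set short-tail sites apart from other sites.

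**Figure D3:**
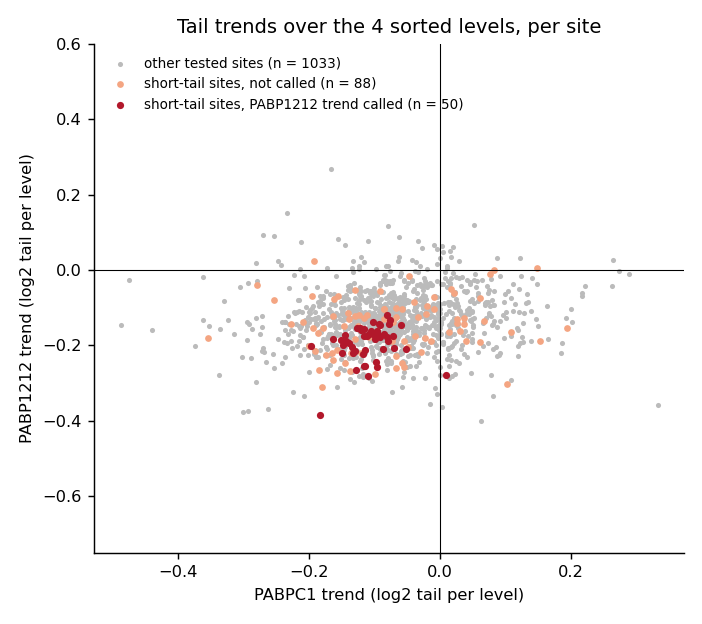
Fitted tail trend (log2 tail length per level) with PABPC1 (horizontal) and with PABP1212 (vertical), for each of 1171 tested sites; 50 short-tail sites with an adjusted p under 0.05 for PABP1212, the 88 that did not pass and the other tested sites are shown apart, the last including sites with under 20 pooled uninduced reads. Of 138 short-tail sites, 118 lie left of 0 and 136 below 0.

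The largest PABP1212 trends among the short-tail sites that passed had different depths. On chromosome 19 at 59062933 (minus strand) the PABP1212 medians were 124, 117.5, 68 and 66.5 nt over the levels, from 24, 50, 101 and 84 reads. Its trend was -0.38 log2 per level (SE 0.108, limma adjusted p = 0.031). With PABPC1 the site had 108, 81, 88 and 84 nt. Chromosome 12 at 3320759 (minus strand) was read far more deeply and fell from 97.5 nt to 64, 44 and 39 nt with PABP1212, the shortest median at that level among the named sites outside the near-tailless group described below. Its trend was -0.28 log2 per level (SE 0.037, limma adjusted p = 0.00118). With PABPC1 it had 102, 79, 68 and 74.5 nt, and in uninduced cells 80 nt (PABPC1 library) and 75 nt (PABP1212 library). The other 3 of the 5 largest were at 113, 103, 67 and 71 nt (chromosome X at 119010625, plus strand), 140, 116.5, 83 and 77 nt (chromosome 9 at 139756571, minus strand) and 120, 99, 80 and 69 nt (chromosome 9 at 35682011, minus strand) over the PABP1212 levels. Their limma adjusted p-values were 0.0299, 0.0178 and 0.0149.

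A further fit asked which sites moved more on the log2 scale than the subsample as a whole, by subtracting from each subsample the median over sites. On that scale the same loss in nt gives a larger trend at a shorter tail, and the short-tail sites were chosen for short tails. A site that passed as shorter therefore need not have lost more nt than other sites. It passed 9 of the 1171 sites (0.769%) for PABP1212, of which 6 were shorter and 3 longer relative to that median. All 6 of the shorter ones were short-tail sites, and they are among the 50 above. The part that the log2 scale plays in this was not tested. They were the site on chromosome 12 at 3320759 and those on chromosome 5 at 40832525 (minus strand), chromosome 17 at 37006334 (minus strand), chromosome 17 at 72206019 (plus strand), chromosome 3 at 12877499 (minus strand) and chromosome 5 at 81571823 (minus strand). At these 6 sites the PABP1212 medians ran from 87 to 99 nt at the lowest level and from 39 to 56 nt at the highest. With PABPC1 they ran from 83 to 102 nt and from 68 to 76 nt. The relative trends lay between -0.16 and -0.08 log2 per level, with limma adjusted p-values from 0.001 to 0.0419. The 6 sites had 704 to 1193 pooled uninduced reads, so each is a deep site, and of the 134 deep other sites 1 passed in this fit, as longer.

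The tail lengths of single reads changed in shape as well as in position. On the 303 sites, the most frequent 10-nt bin was 50 to 59 nt in both uninduced subsamples. With PABPC1 it was 100 to 109 nt at the lowest level, 50 to 59 nt at the second-lowest and second-highest and 40 to 49 nt at the highest. The first and last of these were near ties. At the PABPC1 lowest level the bins starting at 70 and 100 nt held 7.04% and 7.18% of reads. At the PABPC1 highest level those starting at 40 and 50 nt held 8.71% and 8.66%. With PABP1212 it was 40 to 49 nt at the lowest and second-lowest levels and 30 to 39 nt at the second-highest and highest. The PABP1212 lowest level thus held both many short and many long tails, with a shallow mode. Its bins starting at 40 and 50 nt held 6.21% and 5.97% of reads. Tails of 150 nt or more made up 30.4% of its reads on these sites, against 20.2% at the PABPC1 lowest level and 9.66% in its own uninduced subsample. Long tails were not particular to the short-tail sites. On the other sites they made up 39.1% at the PABP1212 lowest level and 18.4% uninduced.

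Short reads were more frequent at the highest than at the lowest level in both libraries, on short-tail and other sites. Tails under 30 nt made up 8.79% of reads on the 303 sites in uninduced cells and 10.5%, 12.9%, 19.0% and 19.1% over the PABP1212 levels. In the PABPC1 library the share was 7.41% uninduced and 4.96%, 6.37%, 9.33% and 9.32% over the levels. On the other sites it was 7.09% at the lowest and 12.0% at the highest PABP1212 level. With PABPC1 these sites had 3.31% at the lowest and 6.11% at the highest level. A recorded tail of exactly 0 nt, which can also be a failed estimate, made up 2.42% of short-tail reads at the PABP1212 second-highest level and 2.23% at the lowest. At the other 8 subsamples this share was 0.456% to 1.33%. The other sites had 2.13% at the PABP1212 second-highest level and 1.90% at the lowest. Within a site, the interquartile range of tail length had a median over the short-tail sites of 109 nt at the PABP1212 lowest level and 70.6 nt at the highest, beside 72.75 and 71.5 nt with PABPC1.

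**Figure D4:**
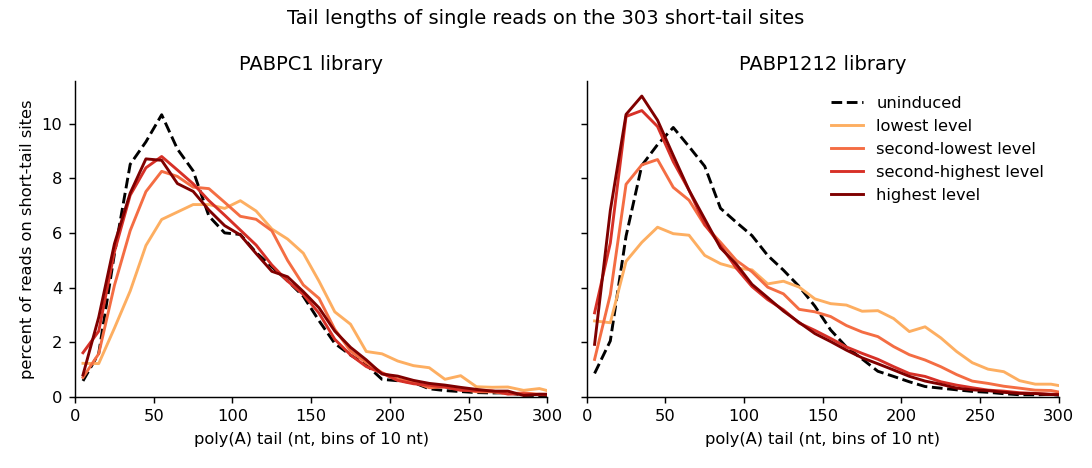
Share of reads on the 303 short-tail sites in each 10-nt bin of tail length (percent of that subsample's reads on these sites), for uninduced cells (dashed) and the 4 sorted levels; the axis ends at 300 nt. The PABP1212 lowest level is broad, with 30.4% of reads at 150 nt or more, and the PABP1212 second-highest and highest levels peak at 30 to 39 nt.

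A distinct group of 4 of the 303 sites had almost no tail. Their pooled medians were 0 to 12 nt, while the next shortest site, on chromosome X at 47046212 (plus strand), was at 49 nt on 20 reads. Together the 4 sites had 1670 reads over the 10 subsamples, of which 96.2% had a tail under 20 nt. On the other 299 short-tail sites that share was 5.97%. The site on chromosome 11 at 93463674 (minus strand) had medians of 0 to 9 nt in the 10 subsamples, and that on chromosome 15 at 66639543 (minus strand) of 0 to 8 nt. That on chromosome 4 at 1976492 (plus strand) had 0 to 8.5 nt and that on chromosome 10 at 101996804 (minus strand) 9 to 13 nt. These medians were low at each level of both libraries. The chromosome 4 site, with enough reads for the fit, had trends of 0.08 (SE 0.199) log2 per level with PABPC1 and -0.01 (SE 0.0988) with PABP1212, with limma adjusted p-values of 0.999 and 0.931. Of all 3918 sites with 100 or more sorted reads, 8 had a sorted median under 20 nt. They were these 4 and 4 sites with under 20 pooled uninduced reads, and the next lowest median was 33 nt.

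In a limma fit with a lower read limit than the main abundance fit, the trend of reads over the levels passed as a fall in both libraries at 1 of these 4 sites. At another it passed as a fall in the PABPC1 library alone. The chromosome 11 site had 17, 19, 24 and 4 reads over the PABPC1 levels, which is 2.58, 1.86, 1.24 and 0.382 reads per 10000. With PABP1212 it had 58, 80, 51 and 24 reads, or 4.15, 2.64, 0.808 and 0.415 per 10000, and in uninduced cells 1.33 (PABPC1 library) and 1.56 (PABP1212 library). Both lowest levels were thus above and both highest levels below the uninduced value. In the limma abundance fit of 4702 sites with a mean of 10 reads, its trend was -1.09 log2 per level with PABP1212 (SE 0.151, adjusted p = 0.00843) and -0.83 with PABPC1 (SE 0.151, adjusted p = 0.0292). That fit passed 0.383% of sites for PABP1212 and 2.08% for PABPC1. The main abundance fit described below required a mean of 50 reads. The chromosome 11, 10 and 15 sites had means of 34.6, 43.1 and 46.6 reads and were not tested in it. Calls at these sites therefore rest on the lower limit alone. At the PABPC1 highest level the chromosome 11 and chromosome 10 sites had only 4 and 7 reads. The chromosome 10 site had a trend of -0.65 with PABPC1 (SE 0.114, limma adjusted p = 0.0292) and of 0.06 with PABP1212 (SE 0.114, limma adjusted p = 0.9). The chromosome 15 and chromosome 4 sites passed for neither transgene. The chromosome 15 site still had fewer reads per 10000 at each higher PABPC1 level, at 1.21, 0.978, 0.827 and 0.382. Its PABPC1 trend was -0.47 (SE 0.133, limma adjusted p = 0.0684).

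The share of reads on short-tail sites was lowest where the transgene was lowest. Of the reads on the 2470 sites, the 303 sites held 24.0% in PABPC1 uninduced cells (exact Clopper-Pearson 95% interval 23.7% to 24.4%) and 21.2% at the lowest level (20.8% to 21.6%). At the next levels they held 22.7%, 22.4% and 22.8%. With PABP1212 they held 24.4% uninduced (24.2% to 24.6%), 18.8% at the lowest level (18.5% to 19.0%) and then 21.6%, 22.6% and 22.7%. Intervals cover counting error only, and no repeat of a level was made. Reads are shares of a library, so fewer molecules of a transcript and more of others cannot be told apart.

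The deep sites carried that difference. The 51 deep short-tail sites held 13.6% of reads at the PABP1212 lowest level and 17.7% at the highest, and 15.8% and 17.5% with PABPC1. Deep other sites held 28.2% and 31.2% with PABP1212 and 28.4% and 29.7% with PABPC1. Sites with 20 to 49 pooled reads went the other way in both classes. The 185 short-tail sites among them held 2.81% at the PABP1212 lowest level and 2.47% at the highest, and 2.81% and 2.51% with PABPC1. The 1359 other sites of that depth held 23.4% and 19.0% with PABP1212 and 21.8% and 19.5% with PABPC1.

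**Figure D5:**
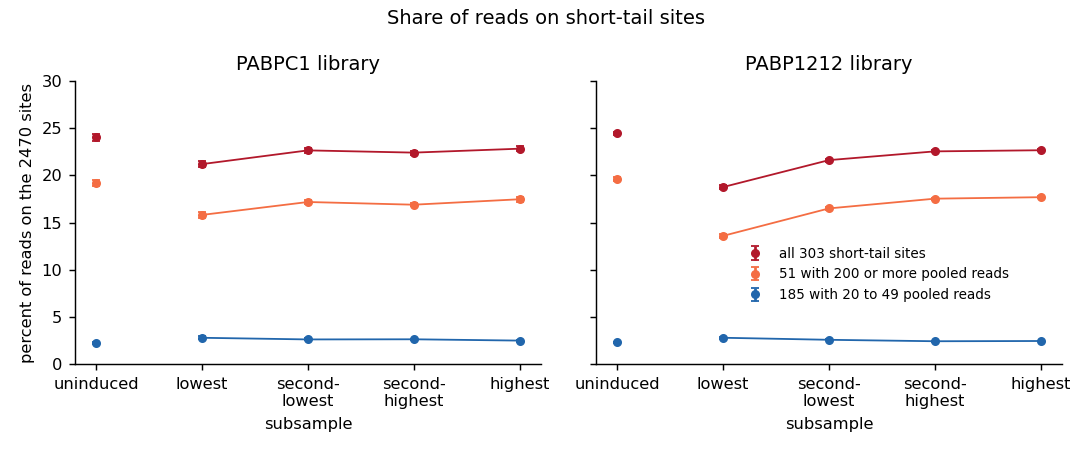
Share of reads on the 2470 sites (percent) held by all 303 short-tail sites, by the 51 with 200 or more pooled uninduced reads and by the 185 with 20 to 49, in each subsample; bars are exact 95% intervals for counting error, mostly smaller than the points. The share of the 303 sites is 18.8% at the PABP1212 lowest level and 22.7% at the highest, below the uninduced 24.4%.

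Abundance trends per site were fitted with limma on 892 sites with a mean of 50 reads over the 8 sorted subsamples, 114 of them short-tail sites. With PABP1212, 20.1% of the 892 sites passed (17.5% rose with the level and 2.58% fell), and 40 of the 114 short-tail sites did (38 rose and 2 fell). With PABPC1, 14.7% passed (11.3% rose and 3.36% fell), and 13 short-tail sites did (11 rose and 2 fell). The median trend of short-tail sites was 0.17 log2 per level with PABP1212 and 0.10 with PABPC1, against 0.12 and 0.08 over all 892 sites. The difference between transgenes passed at 0 sites (0%) by limma, with 57 at an unadjusted p under 0.05, 6 of them short-tail sites. With the level as a block 1.35% of the 892 sites passed for the difference, 3 of them short-tail sites, which rose more with PABP1212. These were on chromosome 12 at 120634502 and 3320759 (minus strand) and on chromosome 20 at 60963576 (plus strand), with limma adjusted p-values of 0.032, 0.0497 and 0.0155. Both tails and abundance passed for PABP1212 at 31 short-tail sites, out of 50 that passed for tails and 40 for abundance. The matching number over all sites is not given here, so this overlap is not a trait of short-tail sites.

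These counts depended on the fit and on single levels. On simulated data the abundance fit also called unchanged sites in the shallower PABPC1 library. With voom weights, which follow the depth of each library, 45 short-tail sites passed with PABP1212, 39 of them among the 40, and 4 passed with PABPC1 (22.5% and 3.36% of all sites). Without the PABP1212 lowest level 0 short-tail sites passed for PABP1212, 25 when its second-highest level was left out and 12 when that of PABPC1 was. For PABPC1, 0 passed without its lowest level, 1 each without its second-highest or highest level, 32 without its second-lowest level and 26 without the PABP1212 lowest level. Shares over all tested sites are not given for the fits with a level left out. The counts of those fits therefore do not set short-tail sites apart from other sites.

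The 5 largest PABP1212 rises among short-tail sites were at sites of 145 to 1488 pooled uninduced reads. The site on chromosome 3 at 48485449 (plus strand) had 2.43, 4.52, 5.91 and 6.43 reads per 10000 over the PABP1212 levels, from 34, 137, 373 and 372 reads, and 4.84 uninduced. Its log2 trend per level was 0.53 (SE 0.125, limma adjusted p = 0.0145), and with PABPC1 it also rose, from 1.97 to 4.69, 5.48 and 5.25 (limma adjusted p = 0.0256). Another site lies 167 nt from it. Chromosome 3 at 39453935 (plus strand) had 16.2, 27.5, 34.1 and 37.5 reads per 10000 over the PABP1212 levels and 39.5 uninduced, with a trend of 0.46 (SE 0.0685, limma adjusted p = 0.00194). It had 22.8, 26.7, 29.2 and 34.0 with PABPC1. The most-read site of chromosome 12, at 120634502, had 27.3, 42.1, 51.4 and 54.4 with PABP1212 beside 54.8 uninduced, with a limma adjusted p of 0.00921. The chromosome 9 site at 130209955 and the chromosome 8 site at 56985613 (both on the minus strand) had trends of 0.39 and 0.38 log2 per level. At each of the 5 sites the lowest level was the lowest of the 5 PABP1212 subsamples. The sites were chosen for a rise over the sorted levels, so their order among those levels describes the choice.

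With PABPC1 the largest rise was at a site of few reads, on chromosome 7 at 100867471 (plus strand), which had 4, 25, 42 and 26 reads over the levels (0.607, 2.45, 2.17 and 2.48 per 10000). The next were the chromosome 3 site at 48485449 above and those on chromosome 4 at 2045691 and chromosome 3 at 10168601 (both on the plus strand), with trends of 0.46 and 0.42 log2 per level. Deeper was the site on chromosome 19 at 49470136 (plus strand), with 17.5, 22.0, 28.6 and 32.9 reads per 10000 and 21.2 uninduced. Its trend was 0.36 with either transgene (SE 0.0614, limma adjusted p = 0.00533 with PABPC1 and 0.00505 with PABP1212).

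Falls with the level were few. Chromosome 8 at 71485680 (minus strand) fell with both transgenes, with 6.38, 2.64, 2.90 and 1.53 reads per 10000 over the PABPC1 levels (limma adjusted p = 0.0107) and 4.50, 3.00, 2.04 and 1.87 over the PABP1212 levels (limma adjusted p = 0.0309). Its uninduced values were 1.33 and 1.85. The site on chromosome 2 at 187374088 (plus strand) fell with PABPC1, from 3.95 to 2.25, 1.34 and 1.14 per 10000, and its log2 trend per level was -0.56 (SE 0.116, limma adjusted p = 0.0124). Chromosome 8 at 109213961 (minus strand) fell with PABP1212, from 13.9 to 11.2, 7.21 and 7.55 per 10000, with a trend of -0.26 (SE 0.0765, limma adjusted p = 0.0294). At each of these 3 sites the lowest level was the highest of the sorted values given. The sites were chosen for a fall over the same levels, so this order describes the choice.

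Neighbouring sites allowed a comparison within a short stretch of genome. Of the 62 short-tail sites with another site within 500 nt on the same strand, 31 had a nearest neighbour with 20 or more pooled uninduced reads, and at 4 of these the neighbour was itself a short-tail site. In the other 27 pairs the short-tail site lay downstream in 7 and had more reads in 17. It was the shorter of the pair in 10 of 17 pairs with 10 or more reads each at the PABP1212 lowest level, and in 16, 20 and 16 of 27 at the next levels, with median differences of -3.5, -7, -10 and -3 nt. With PABPC1 it was shorter in 4 of 5, 14 of 19, 19 of 24 and 14 of 21 pairs from the lowest to the highest level. In uninduced cells, where the choice was made, it was shorter in 10 of 12 and 26 of 27 pairs. Whether both sites of a pair belong to the same gene was not analysed here.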

How the data were processed

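The deposited tables give for each read, per the file headers, the barcoded sample name, the poly(A) site and the tail length in nt. Tools named in the submitters' processing notes are Bowtie2 and minimap2, and the genome build named there is hg38. The sources used here give neither their versions nor the caller of tail lengths. Of the 8995 sites, 2.66% lay within 25 nt of a GENCODE v29 transcript end of hg38 and 122 lay beyond the last one of their chromosome, so gene names, sequences and the gene and marker lists were not used here. In the deposited barcode table, 3 barcodes were merged per sorted level, the same adapters serving both libraries. Reads of unlisted sample names (2.86% and 5.63%) were left out.

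The members and lists were chosen with earlier results of these data known. Sites named are the 8 with the most reads, the 5 shortest, the 5 largest trends per direction among those that passed, the 3 on each side of the limit, and the 6 of the median-subtracted fit, chosen after their values were seen. Intervals of site medians are order-statistic intervals, and those of shares are Clopper-Pearson, both at 95% and for counting error only.

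Trends used limma 3.58.1 in R 4.3.3 over the 8 sorted subsamples, with terms for the library and, within it, the centred rank of the level, and Benjamini-Hochberg adjusted p-values over all sites with a threshold of 0.05. The spread is that around a line over levels, which may be technical. Abundance was counted here from reads, as log2(CPM + 1), scaled by median ratios to geometric means (6348 sites), with a variance trend. Each fit was tested on simulated data. Alternatives were leaving out each level, other limits of median and reads, the level as a block, other weights, scaling, pseudocounts and filters. Other steps used SciPy 1.17.1, pandas 2.3.3, NumPy 2.4.6 and Matplotlib 3.10.9 in Python 3.11.15.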

Additional observations from a re-analysis of the deposited data

How the results depend on the processing

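No subsample was repeated, so no replicate numbers pair them. Subsamples of the same level share adapters, and with the level as a block, chosen after seeing the data, the tail trend difference passed at 1 short-tail site (0 otherwise). Limits: a level is 1 observation, and most counts of short-tail sites that passed changed when 1 level was left out. Where such counts stand without the share over all sites, they do not set short-tail sites apart from other sites.

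Leaving out each level in turn gave 0 to 1 short-tail sites with a PABPC1 tail trend (0 otherwise), 0 to 107 with a PABP1212 tail trend (50 otherwise), 0 to 32 with a tail trend difference (0 otherwise), 0 to 32 with a PABPC1 abundance trend (13 otherwise) and 0 to 57 with a PABP1212 abundance trend (40 otherwise). The median tail slopes (nt per level) ranged from -10.2 to -3 for PABPC1 and from -20.4 to -8.12 for PABP1212, and kept their sign. A limit of 70 nt left 64 sites and a limit of 90 nt gave 746. With these limits the counts were 6 and 95 for PABP1212 tails, 2 and 38 for PABPC1 abundance and 4 and 89 for PABP1212 abundance, and the larger and smaller numbers of sites tested are part of the change. Without tails of 0 nt (members chosen again) 88 short-tail sites passed for PABP1212 tails, and without sorted tails under 10 nt 86. The set without tails under 10 nt holds all 50. With no weights 7 passed and with subsample medians subtracted 6. The cause was not tested. Scaling by total reads gave 6 short-tail sites for PABPC1 abundance (4 higher, 2 lower) and 25 for PABP1212 (21 higher, 4 lower), and moved the median PABP1212 trend of all sites from 0.12 to 0.05 log2 per level. A mean of 10 reads gave 10 for PABP1212 abundance, over more sites, and voom weights gave 4 for PABPC1. The share of reads on short-tail sites was 3.90 points higher at the PABP1212 highest than lowest level. This became 0.356 points with a limit of 70 nt, 5.99 with 90 nt and 4.29 as a share of all reads. With PABPC1 it was 1.63 points, and 0.11, 2.31 and 2.17. A slope with no test was set against the standard error of the line through the class medians, 2.16 (PABPC1) and 4.03 nt per level (PABP1212), and apart from left-out levels no alternative moved a slope by more.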

Other observations

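Among the sites nearest the limit, the most-read one outside it also shortened over the levels and ended longer with PABP1212 than the 3 inside. On chromosome 11 at 61732002 (minus strand), with a pooled median of 80.5 nt, the medians were 104, 92, 83 and 82 nt over the PABPC1 levels and 115, 89, 75 and 73 nt over the PABP1212 levels. At the site of the same chromosome at 8707395 (plus strand), with 80 nt, they were 98, 84, 74 and 80 nt and 101, 71, 56 and 56 nt. The 95% intervals at the PABP1212 highest level were 71 to 75 nt at the first site and 54 to 60 nt at the second.

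The chromosome 13 site at 45911270 was the 1 of the 8 most-read short-tail sites with more reads per 10000 at both lowest levels than in uninduced cells. It had 57.7 at the PABPC1 lowest level beside 38.3 uninduced, and 43.5 at the PABP1212 lowest level beside 36.2. At the other 7 sites both lowest levels were below uninduced. Another site lies 315 nt from it.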
